A study of Mus musculus with 9 samples.

Results

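The G protein and cyclic AMP signalling genes are 59 genes chosen by symbol from the deposited count table, which held 24623 distinct symbols, with the first row taken for each symbol. All 59 were found, and all 59 passed the filter on low counts. They comprised 13 G alpha, 4 G beta and 8 G gamma subunit genes, 9 adenylyl cyclases, 14 phosphodiesterases, 6 subunits of protein kinase A, 2 Epac genes, and Creb1, Crem and Sik1. RNA sequencing was done on hand-picked pancreatic islets of 4-week-old mice, with 4 control libraries (Glis3fl/fl, labelled WT) and 3 libraries labelled knockout (Pdx1-Cre;Glis3fl/fl, labelled KO). All 7 mice carried the conditional Glis3 allele, and no group carried Pdx1-Cre without it, so effects of the driver and of the deletion cannot be told apart. The Pdx1 promoter drives Cre in the pancreatic epithelial lineage, so vessel, stromal and immune cells of an islet lie outside the deletion. Binding of Glis3, a zinc finger transcription factor, was mapped once, by chromatin immunoprecipitation with a GFP antibody, on islets from Glis3-eGFP mice aged 8 weeks.

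Heterotrimeric G proteins carry signals from cell-surface receptors. In beta cells the stimulatory Gs alpha subunit, activated through incretin receptors, turns on adenylyl cyclases, and the cyclic AMP they make acts through protein kinase A and Epac to amplify insulin secretion. Gi, Go and Gz oppose cyclase, Gq acts through phospholipase C, phosphodiesterases break cyclic AMP down, and the CREB family of transcription factors carries the signal to genes.

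The libraries held 12099365 to 48054551 counts. Islet hormone genes dominated them, with Ins2 alone at 22.3 to 28.4% of control counts and 7.17 to 12.2% of labelled knockout counts. The targeted gene, Glis3, was not lower in the labelled knockouts: its level was 37.8 ± 6.95 CPM (SD, n = 4) among controls and 54.2 ± 3.11 CPM (SD, n = 3) in labelled knockouts (a log2 change of 0.52 with SE 0.14, edgeR adjusted p = 0.0257). This call was lost with the replicate block (edgeR adjusted p = 0.0505) and without controls 3 or 4 or labelled knockouts 1 or 3 (0.0501 to 0.117, edgeR adjusted p). It was also lost with the mean of the acinar markers as a covariate (edgeR adjusted p = 0.109). The replicate block matches libraries by number, and control 4 has no match, so the block draws no group difference from control 4. Which part of Glis3 the deletion removes is not given in the sources used here, so this level over the whole gene is no check of it, and the label alone names the group. CPM are counts scaled to a common library size with TMM factors, and "called" means an adjusted p under 0.05 in edgeR's quasi-likelihood test with Benjamini-Hochberg adjustment over all 14529 tested genes. Summed levels of the marker lists of exocrine acinar cells (18 genes found, 17 tested, none called, Amy2a5 at 0, 887 to 5671 CPM in controls and 2857 to 15614 CPM in labelled knockouts), endothelial cells (8 genes, none called), immune cells (8 found, none called), alpha cells (7 genes, 2 lower and 3 higher), delta cells (4, Rbp4 higher) and Schwann cells and neurons (7, Tubb3 lower) overlapped between groups. Those of beta cells (8 genes, 5 lower and 1 higher), gamma cells (2, both lower), duct cells (8 found, Spp1 higher), stellate cells and fibroblasts (8, Dcn and Rgs5 higher) and stomach (6 found, Pgc and Gkn3 higher, with Gkn1, Gkn2 and Tff1 at 0) did not overlap. Their part in the results below was not tested.

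Of the 59 genes, 9 were called higher and 4 lower in the labelled knockouts, and 46 were not called. Those are 15.3% and 6.78% of the genes, beside 8.73% and 5.25% of all tested genes, or 14.0% in either direction. The 9 that rose were Gnas, Gna14, Gng2, Adcy2, Pde4d, Pde7b, Pde10a, Prkar1a and Crem, and the 4 that fell were Gnai1, Gna13, Pde3b and Pde7a. The median log2 fold change of the 59 was 0.09, beside 0.01 over all tested genes. In 9 genes every labelled knockout library stood above every control, and in 12 every one stood below, which is 15.3% and 20.3%, beside 14.0% and 12.6% of all tested genes (26.6% in either direction). Scaled by library size alone, 13 genes (22.0%) stood above and 4 (6.78%) below, beside 20.3% and 4.33% of all tested genes. Which direction held more of the 59 genes thus turned with the scaling. The share below was larger than that of all tested genes under both scalings, on 12 and 4 genes, which was not tested. Gna11, Gna13, Adcy9, Pde3b, Pde7a, Prkacb, Prkar1b and Rapgef4 stood below every control with TMM factors but overlapped under library size alone. The count of genes that fell was 1 without any of controls 1 to 3, 2 without control 4 or labelled knockout 1, and 6 without labelled knockout 3, while the count of genes that rose ran from 8 to 10 when any 1 library was left out. In bulk islets, fewer cells of a type and less RNA per cell cannot be told apart.

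**Figure D1:**
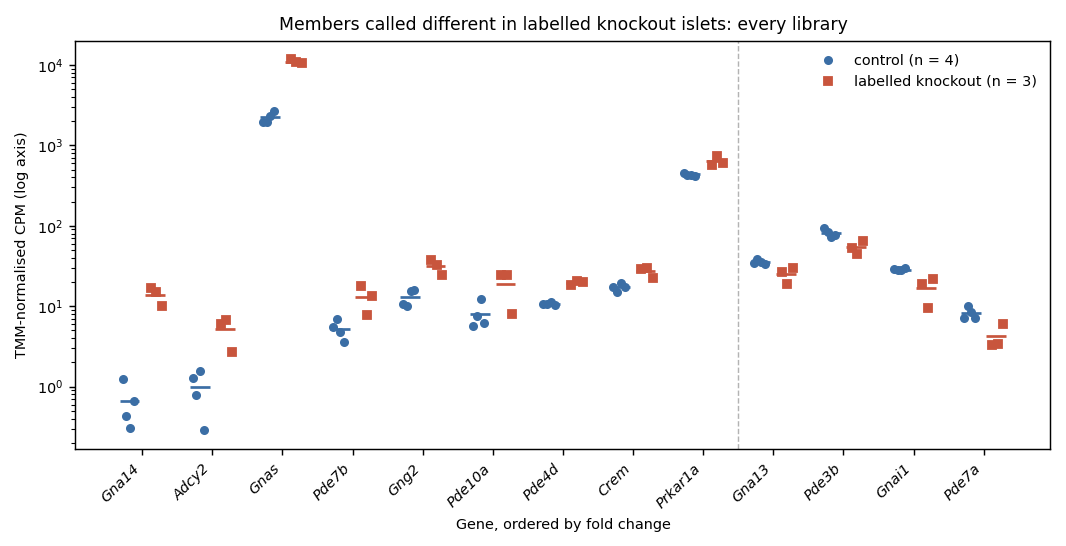
TMM-normalised CPM (log axis) of the 13 genes called different, 1 point per library, with blue circles for the 4 controls, red squares for the 3 labelled knockouts and bars at group means. The 9 genes left of the dashed line rose and the 4 to its right fell; only for Pde10a do the points of the 2 groups overlap.

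**Figure D2:**
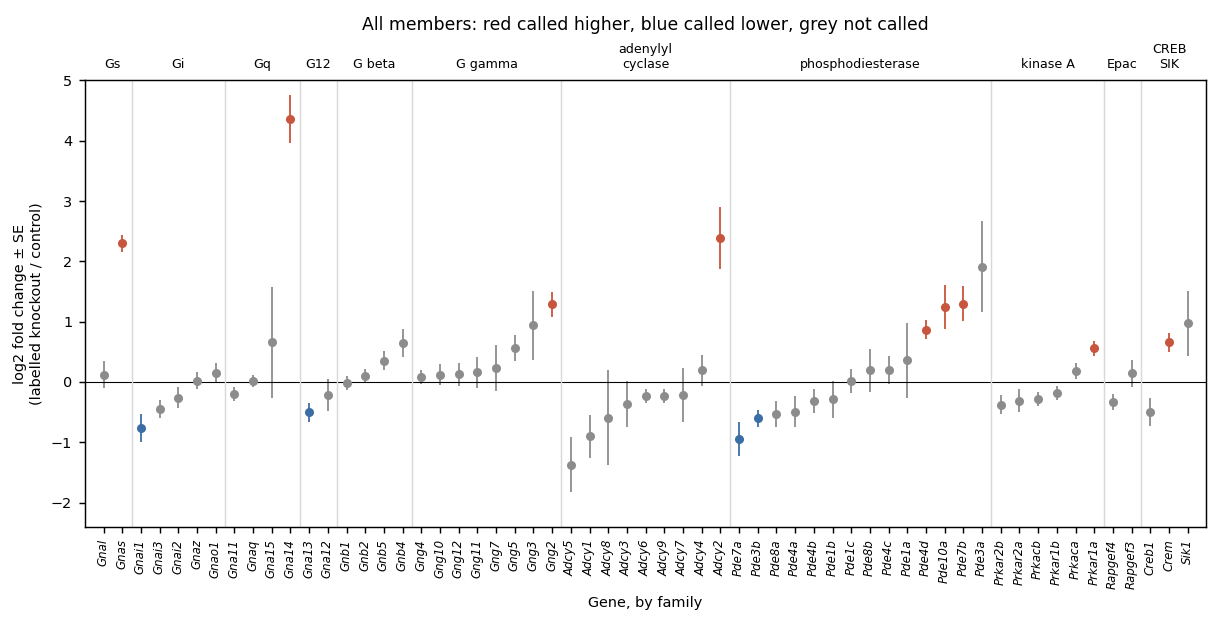
Log2 fold change (labelled knockout over control) ± SE for all 59 genes, by family. Red points were called higher, blue points lower and grey points not called; Gna14 (4.37), Adcy2 (2.39) and Gnas (2.30) stand highest.

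Gnas, which encodes the Gs alpha subunit, rose about 5-fold. It stood at 1971, 1945, 2338 and 2666 CPM across controls 1 to 4, against 11748, 10736 and 10464 CPM across labelled knockouts 1 to 3. The lowest labelled knockout library was thus far above the highest control, and the spread within each group was small beside the gap. The fold change was 4.93 (log2 2.30, SE 0.14, edgeR adjusted p = 3.7e-07), and Gnas was called in all 15 alternative fits that kept it in the table. Its counts were 0.204 to 0.216% of each control library and 1.05 to 1.31% of each labelled knockout library.

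Within the 13 G alpha genes, Gnas made up 64.0, 61.9, 62.0 and 64.3% of the summed CPM across controls 1 to 4, and its share was 91.6, 88.7 and 89.4% across labelled knockouts 1 to 3. These shares are of counts, not of transcripts per length, so they compare libraries and not genes. The other 12 G alpha genes together had 1305 ± 181 CPM (SD, n = 4) in controls and 1234 ± 145 CPM (SD, n = 3) in labelled knockouts, with ranges that overlapped. Gnal, which encodes the closely related Golf alpha subunit, had 8.09 to 13.8 CPM in controls and 9.72 to 12.7 CPM in labelled knockouts and was not called (log2 0.12, SE 0.23).

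**Figure D3:**
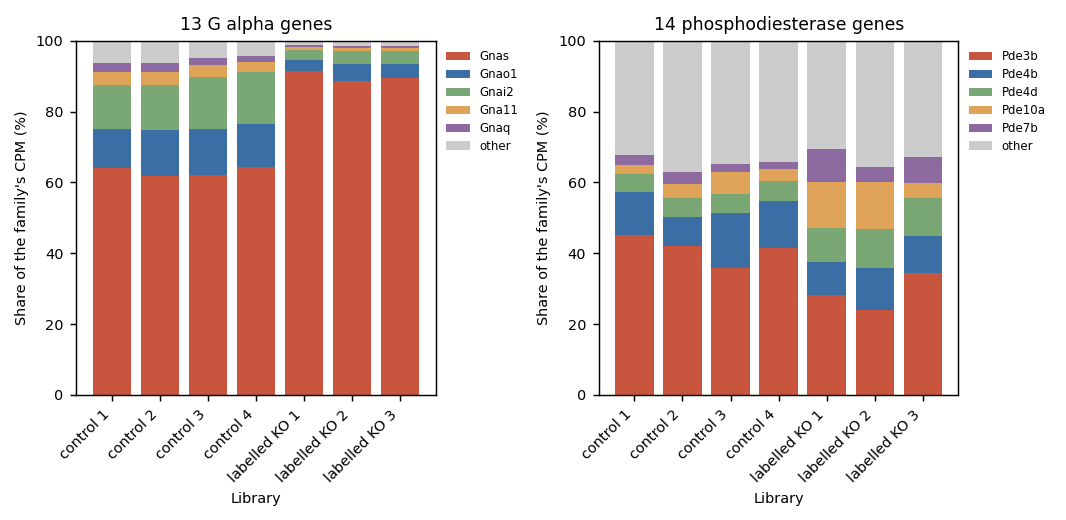
Share (%) of the summed CPM of the 13 G alpha genes (left) and the 14 phosphodiesterase genes (right) in each library. Gnas takes 61.9 to 64.3% of the G alpha bars in controls and 88.7 to 91.6% in labelled knockouts; Pde3b takes 35.8 to 45.2% of the phosphodiesterase bars in controls and 23.9 to 34.5% in labelled knockouts.

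The Gnas row spans chr2:174284320-174346742 (mm10, plus strand) and is known as an imprinted locus with several promoters. The start farthest upstream gives Nesp, a chromogranin-like secretory granule protein, the start farthest downstream gives Gs alpha, and a longer Gs alpha form starts between them. The close pair of RefSeq starts between the outermost is not assigned to that longer form here. A count per gene pools the transcripts of all starts, so the rise cannot be assigned to any of them. The antisense gene Nespas, whose span overlaps the upstream end of Gnas on the other strand, had 0.447 to 0.731 CPM in controls and 1.38 to 4.9 CPM in labelled knockouts (a log2 change of 2.52 with SE 0.54, edgeR adjusted p = 0.00661). Whether the counting used strand is not given in the sources used here, so reads of Gnas and Nespas may not be separated. Glis3 peaks lay at 4 places in the Gnas span. Their midpoints were 889 bases after the upstream start, 15070 bases after it, 709 bases after the downstream start and 14229 bases after that start, the first and the third being chr2:174285110-174285309 and chr2:174330616-174330815.

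**Figure D4:**
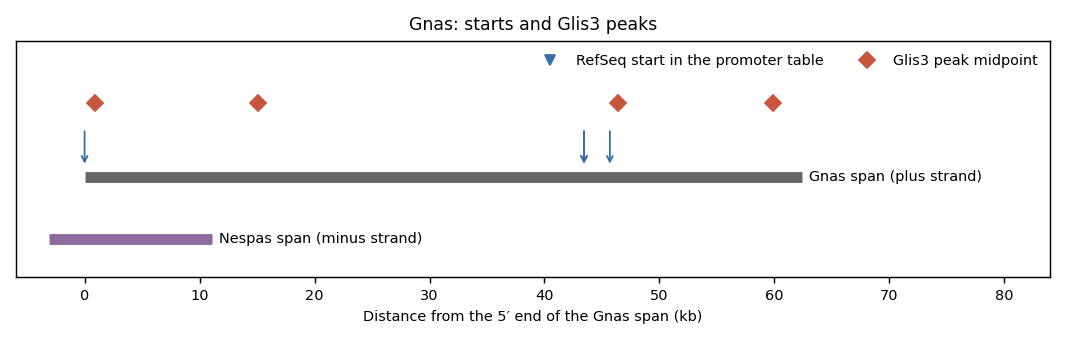
Map of the Gnas span (grey) and the Nespas span (purple), with distance from the 5′ end of Gnas in kb. Blue arrows are the RefSeq starts of the promoter table, of which a close pair shows as a single arrow, and red diamonds are the midpoints of the 4 Glis3 peaks, of which 2 lie less than 1 kb after a start.

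The sequences before the Gnas starts are shown because a peak lies less than 1 kb after each of the outermost starts, which are those printed. They are the 250 bases before a start in RefSeq's GRCm38.p6 annotation, whose chromosomes are those of mm10, 5′ to 3′ on the strand of the gene. Capitals mark every match, on either strand, to TGGGGGG, a core of described Glis sites, or to TGACG, the short form of the cyclic AMP response element. The first is chr2:174284070-174284319, with 2 adjacent matches to the Glis core on the opposite strand, and the second is chr2:174329756-174330005, with 1 short form and 80.0% G and C.
Gnas upstream start: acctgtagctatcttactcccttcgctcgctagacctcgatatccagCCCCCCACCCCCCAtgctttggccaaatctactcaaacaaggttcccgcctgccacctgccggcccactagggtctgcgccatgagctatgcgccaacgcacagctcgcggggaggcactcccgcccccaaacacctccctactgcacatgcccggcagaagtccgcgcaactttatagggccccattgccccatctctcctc
Gnas downstream start: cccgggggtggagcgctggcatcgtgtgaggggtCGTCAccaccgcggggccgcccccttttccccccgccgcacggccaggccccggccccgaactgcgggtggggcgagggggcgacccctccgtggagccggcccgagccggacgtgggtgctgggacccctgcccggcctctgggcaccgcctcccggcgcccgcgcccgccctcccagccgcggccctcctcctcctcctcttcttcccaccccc
Neither window overlaps a peak, since both nearby peaks lie after their start.

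Among the inhibitory G alpha genes, 1 of 5 fell (20%, beside 5.25% of all tested genes) and none rose. Gnai1, a Gi alpha subunit gene, stood at 28.9, 27.9, 27.9 and 29.5 CPM across controls 1 to 4, against 19.2, 9.46 and 21.9 CPM across labelled knockouts 1 to 3. The controls lay close together and every labelled knockout was below them, with labelled knockout 2 lowest. Its log2 fold change was −0.77 (SE 0.23, edgeR adjusted p = 0.0374). The call was lost without any 1 control, or without labelled knockouts 1 or 2, at edgeR adjusted p from 0.0514 to 0.0724; the log2 value without labelled knockout 2 was −0.48. Under scaling by library size alone the edgeR adjusted p was 0.0896.

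The other inhibitory genes were not called. Gnai3 had 52.2 to 73.9 CPM in controls and 41.1 to 53.2 CPM in labelled knockouts (a log2 change of −0.44 with SE 0.15, edgeR adjusted p = 0.0661), and the ranges overlapped narrowly, at control 4 and labelled knockout 2. It was called with the replicate block (log2 −0.52, edgeR adjusted p = 0.0225), without control 4 (0.0339) and without labelled knockout 2 (0.04996). With all libraries kept, Gnai3 was called by DESeq2 (adjusted p = 0.0464) and with no filter on low counts (edgeR adjusted p = 0.0427). The block and the fit without control 4 are not separate checks, since both set control 4 aside. Gnai2 had 483 ± 112 CPM (SD, n = 4) against 403 ± 45.1 CPM (SD, n = 3), a log2 difference of −0.26 (SE 0.17). Gnao1, which encodes the Go alpha subunit that restrains secretion downstream of adrenergic receptors, had 439 ± 80.7 against 488 ± 89.6 CPM (log2 0.15, SE 0.17). Gnaz, which encodes Gz alpha, a cyclase inhibitor insensitive to pertussis toxin, had 31.7 to 42.4 against 34.0 to 44.6 CPM (log2 0.02, SE 0.14). For these 3 genes the labelled knockout range overlapped the control range.

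The Gq family held the largest fold change of the 59 genes. Gna14, a Gq-class alpha subunit gene, was at 1.25, 0.428, 0.304 and 0.670 CPM across controls 1 to 4, against 17.0, 14.9 and 10.1 CPM across labelled knockouts 1 to 3. It was low in every control, and each labelled knockout was well above them. The fold change was 20.6 (log2 4.37, SE 0.40, edgeR adjusted p = 6.95e-06), and the gene was called in all 16 alternative fits. The ubiquitous Gq gene Gnaq was not called, at 75.9 ± 3.80 CPM (SD, n = 4) against 76.8 ± 3.75 CPM (SD, n = 3), with a log2 difference of 0.02 (SE 0.11). Gna11 had 115 to 119.6 CPM in controls and 94.1 to 113 CPM in labelled knockouts, ranges that did not overlap (log2 −0.20, SE 0.11, edgeR adjusted p = 0.259). Gna15, found mainly in blood cells, was at or under 1.19 CPM in every library (log2 0.65, SE 0.92).

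Gna14 is shown with its upstream sequence because it rose most by fold and had no peak near its start. The nearest Glis3 peak was 57.0 kb before the 5′ end, and 2 peaks lay inside its 175.2 kb span on chromosome 19. The window chr19:16435417-16435666 holds no match to the Glis core or the short form, so nothing in it is in capitals.
Gna14 start: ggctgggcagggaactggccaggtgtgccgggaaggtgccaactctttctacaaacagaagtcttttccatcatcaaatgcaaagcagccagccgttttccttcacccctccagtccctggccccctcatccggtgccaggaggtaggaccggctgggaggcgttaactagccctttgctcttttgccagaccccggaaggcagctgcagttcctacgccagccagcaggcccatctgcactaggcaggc

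Of the pair Gna12 and Gna13, which form a G alpha family of their own, Gna13 fell and Gna12 was not called. Gna13 stood at 34.5, 38.2, 35.0 and 33.6 CPM across controls 1 to 4, against 26.5, 18.7 and 29.6 CPM across labelled knockouts 1 to 3, all below the controls (log2 −0.50, SE 0.16, edgeR adjusted p = 0.0482). With the replicate block the edgeR adjusted p was 0.0512, under library size alone it was 0.274, and without any 1 control or without labelled knockouts 1 or 2 it ran from 0.0670 to 0.141; the log2 value without labelled knockout 2 was −0.33. The Gna13 span overlaps an opposite-strand predicted gene in the table, so whether its reads are separated is not known either. Another row with counts overlaps the spans of 11 of the 59 genes. They include Gnal (Chmp1b, same strand), Gnb4 (Mfn1, opposite strand) and Gng3 (Bscl2, opposite strand). Gna12 had 9.62 to 15.2 CPM in controls and 7.80 to 17.0 CPM in labelled knockouts (log2 −0.21, SE 0.26).

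Of the 12 G beta and G gamma genes, which form the dimer that anchors and regulates G alpha, only Gng2 was called. Over all tested genes, 14.0% were called in either direction. Gng2 stood at 10.6, 10.1, 15.6 and 15.7 CPM across controls 1 to 4, against 38.1, 32.6 and 24.2 CPM across labelled knockouts 1 to 3. The groups were well apart, with a fold change of 2.44 (log2 1.29, SE 0.21, edgeR adjusted p = 0.000777), and the call held in all 16 alternative fits. Gnb1, Gnb2 and Gng4 were not called, with log2 values of −0.02 (SE 0.12), 0.10 (SE 0.12) and 0.09 (SE 0.12) at group means between 249.5 and 289.6 CPM. The sign of Gnb1 turned under library size alone (0.16), so it has no direction here.

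Gng5 and Gnb4 came closest to the threshold among the rest. Gng5 had 39.3, 39.0, 67.4 and 73.2 CPM across controls 1 to 4, against 71.1, 83.0 and 87.6 CPM across labelled knockouts 1 to 3, so control 4 overlapped labelled knockout 1 (log2 0.56, SE 0.21, edgeR adjusted p = 0.108). With the replicate block it was called (log2 0.78, edgeR adjusted p = 0.00254), as it was without control 4 (0.0310) and under library size alone (log2 0.77, edgeR adjusted p = 0.00305). Here too the block and the fit without control 4 both set that library aside. Gnb4 had 9.67 to 11.9 CPM in controls and 24.4, 13.8 and 12.7 CPM in labelled knockouts 1 to 3, with no overlap but 1 library far above the rest (log2 0.65, SE 0.23, edgeR adjusted p = 0.0740; 0.0499 without labelled knockout 3 and 0.0356 under library size alone). Gnb5, Gng3, Gng7, Gng10, Gng11 and Gng12 were not called, with log2 values from 0.12 to 0.94 and overlapping ranges.

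Of the 9 adenylyl cyclase genes, 1 rose (11.1%, beside 8.73% of all tested genes) and none fell. Adcy2, a cyclase that G beta gamma dimers can stimulate, was at 1.29, 0.797, 1.58 and 0.287 CPM across controls 1 to 4, against 6.09, 6.65 and 2.70 CPM across labelled knockouts 1 to 3. All 3 labelled knockouts were above all controls, at low levels throughout, with a fold change of 5.23 (log2 2.39, SE 0.52, edgeR adjusted p = 0.00690). The call held in all 16 alternative fits, with an edgeR adjusted p of at most 0.0306.

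Adcy5, a calcium-inhibited cyclase that links glucose to insulin secretion, was at 3.97, 3.11, 2.31 and 2.01 CPM across controls 1 to 4, against 0.891, 1.47 and 0.930 CPM across labelled knockouts 1 to 3. Every labelled knockout was below every control, but the test missed the threshold (log2 −1.37, SE 0.45, edgeR adjusted p = 0.0598). It was passed without labelled knockout 2 (edgeR adjusted p = 0.0459) and by DESeq2 (adjusted p = 0.0210). Adcy1 and Adcy9 likewise did not overlap between groups, at log2 −0.90 (SE 0.36) and −0.23 (SE 0.11), and were not called.

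Adcy6 had 69.1 ± 7.90 CPM (SD, n = 4) in controls and 58.7 ± 1.24 CPM (SD, n = 3) in labelled knockouts (a log2 change of −0.24 with SE 0.12, edgeR adjusted p = 0.217). Adcy8, a calcium-activated cyclase, was at 0.183 to 1.04 CPM in controls and 0.216 to 0.743 CPM in labelled knockouts, where a difference could not be resolved at this depth (log2 −0.59, SE 0.78). Adcy3, Adcy4 and Adcy7 also overlapped between groups, with log2 values of −0.36 to 0.20. Summed over the 9 genes, cyclase levels were 129.5 to 150.5 CPM in controls and 121 to 127 CPM in labelled knockouts.

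The phosphodiesterases moved in both directions, with 3 of 14 higher and 2 lower (21.4% and 14.3%, beside 8.73% and 5.25% of all tested genes). Pde3b, the insulin-regulated phosphodiesterase known to limit cyclic AMP in beta cells, fell: it stood at 94.7, 84.3, 73.2 and 76.3 CPM across controls 1 to 4, against 53.5, 44.0 and 64.5 CPM across labelled knockouts 1 to 3. The ranges did not overlap, and the level was 1.52-fold lower (a log2 change of −0.61, SE 0.14, edgeR adjusted p = 0.0119). The call was lost under library size alone (log2 −0.46, edgeR adjusted p = 0.0986) and with the acinar marker mean as a covariate (0.0679), and held without any 1 library.

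Pde4d, a cyclic AMP-specific phosphodiesterase, rose from 10.6, 10.7, 11.3 and 10.4 CPM across controls 1 to 4 to 18.5, 20.3 and 20.1 CPM across labelled knockouts 1 to 3. The spread within each group was small, and the rise was 1.83-fold (log2 0.87, SE 0.15, edgeR adjusted p = 0.00160), called in all 16 alternative fits. Within the PDE4 family its share of summed CPM was 20.3 to 27.0% in controls and 38.0 to 39.5% in labelled knockouts. The other family members were not called: Pde4a had 5.25 to 6.39 against 3.67 to 4.69 CPM (log2 −0.49, SE 0.26), Pde4b 16.4 to 31.8 against 17.4 to 21.9 CPM (log2 −0.32, SE 0.20), and Pde4c 5.79 to 7.29 against 6.48 to 8.64 CPM (log2 0.19, SE 0.23). Their sum was 47.5 ± 6.63 CPM (SD, n = 4) in controls and 50.7 ± 3.33 CPM (SD, n = 3) in labelled knockouts.

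The pair of cyclic AMP-specific PDE7 genes moved in opposite directions. Pde7a fell from 7.14, 10.1, 8.40 and 7.18 CPM across controls 1 to 4 to 3.34, 3.37 and 5.98 CPM across labelled knockouts 1 to 3 (log2 −0.95, SE 0.28, edgeR adjusted p = 0.0384). Pde7b rose from 5.57, 6.85, 4.81 and 3.64 CPM to 17.7, 7.86 and 13.4 CPM (log2 1.30, SE 0.29, edgeR adjusted p = 0.00797). Neither gene's groups overlapped, and Pde7b took 33.6 to 43.8% of the PDE7 sum in controls against 69.2 to 84.1% in labelled knockouts. Pde7b was called in all 16 alternative fits, while Pde7a was lost without any 1 control or without labelled knockouts 1 or 2 (0.0530 to 0.132, edgeR adjusted p) and under library size alone (0.0950).

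Pde10a, a dual cyclic AMP and cyclic GMP phosphodiesterase, was at 5.64, 7.66, 12.4 and 6.27 CPM across controls 1 to 4, against 24.1, 24.3 and 8.02 CPM across labelled knockouts 1 to 3. Labelled knockout 3 lay within the control range, so the rise (log2 1.24, SE 0.37, edgeR adjusted p = 0.0476) rested on the other two. The edgeR adjusted p was 0.257 with the replicate block, 0.166 without labelled knockout 1, 0.193 without labelled knockout 2, and 0.108 to 0.127 without controls 1, 2 or 4. Pde3a spread widely, at 0.731 to 1.75 CPM in controls and 0.223, 9.11 and 4.25 CPM in labelled knockouts 1 to 3 (log2 1.91, SE 0.75, edgeR adjusted p = 0.116). It was called without labelled knockout 1 (log2 2.44, edgeR adjusted p = 0.00262) and by DESeq2 (adjusted p = 0.0470). Pde8a had 16.3 to 22.5 CPM in controls and 11.7, 17.8 and 10.6 CPM in labelled knockouts 1 to 3 (log2 −0.53, SE 0.21, edgeR adjusted p = 0.111), and was called without labelled knockout 2 (0.0214). The calcium and calmodulin-activated genes Pde1a, Pde1b and Pde1c, and Pde8b, were not called, with log2 values of −0.29 to 0.36. The 14 phosphodiesterases summed to 184 to 209 CPM in controls and 184 to 189 CPM in labelled knockouts, so the ranges overlapped.

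In protein kinase A, the regulatory gene Prkar1a rose and no other subunit gene was called. Prkar1a, which encodes the type I alpha regulatory subunit that holds the catalytic subunits inactive until cyclic AMP binds, stood at 454, 431, 433 and 421 CPM across controls 1 to 4, against 574, 746 and 596 CPM across labelled knockouts 1 to 3. The groups did not overlap, and the level was 1.47-fold higher (log2 0.55, SE 0.13, edgeR adjusted p = 0.00895), a call lost with the acinar marker mean as a covariate (edgeR adjusted p = 0.0785). Its share of the 4 regulatory genes' CPM was 66.1 to 70.5% in controls and 76.7 to 81.0% in labelled knockouts. Prkar1b had 139 ± 11.3 against 123 ± 2.90 CPM (log2 −0.18, SE 0.11; 0.0011 under library size alone), Prkar2a 17.1 ± 3.80 against 13.8 ± 0.642 CPM (log2 −0.31, SE 0.19), and Prkar2b 47.1 ± 3.96 against 36.1 ± 8.90 CPM (log2 −0.38, SE 0.16), each SD over 4 controls and 3 labelled knockouts. Prkar2b was called without labelled knockout 3 (log2 −0.60, edgeR adjusted p = 0.0319).

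The catalytic genes were not called. Prkaca had 139 ± 18.0 CPM (SD, n = 4) against 157 ± 13.4 CPM (SD, n = 3), with a log2 difference of 0.18 (SE 0.13). Prkacb had 414 to 460.2 CPM in controls and 337 to 371 CPM in labelled knockouts, ranges that did not overlap (log2 −0.28, SE 0.11, edgeR adjusted p = 0.129, and DESeq2 adjusted p = 0.0284). Scaled by library size alone, the Prkacb ranges overlapped. The regulatory genes summed to 630 to 644 CPM in controls and 735 to 921 CPM in labelled knockouts, and the catalytic genes to 538 to 596 and 479 to 533 CPM.

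The Prkar1a promoter is shown because the gene rose, a Glis3 peak covers its start, and it was the only gene of the 47 in the promoter table with a full cyclic AMP response element, TGACGTCA, in a window. Prkar1a has several RefSeq starts. In the window before the start at 109650949 on chromosome 11 (chr11:109650699-109650948), 56 bases lie in the peak chr11:109650893-109651092, and the full element begins 49 bases before the start. Capitals mark short forms, the full element being a pair of short forms that overlap.
Prkar1a start: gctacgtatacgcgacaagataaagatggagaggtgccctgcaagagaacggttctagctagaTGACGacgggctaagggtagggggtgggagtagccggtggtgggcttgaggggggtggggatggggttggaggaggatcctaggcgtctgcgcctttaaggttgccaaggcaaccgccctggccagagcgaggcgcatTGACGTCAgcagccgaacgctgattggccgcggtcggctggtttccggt

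Neither Epac gene, whose products are exchange factors for Rap that cyclic AMP activates directly, was called. Rapgef4, which encodes the Epac isoform known for priming granule release in beta cells, had 116, 127, 135 and 119 CPM across controls 1 to 4, against 83.1, 96.5 and 115 CPM across labelled knockouts 1 to 3. The ranges came close at labelled knockout 3 and control 1 but did not overlap (log2 −0.34, SE 0.13, edgeR adjusted p = 0.109), and the gene was called without labelled knockout 3 (log2 −0.50, edgeR adjusted p = 0.0365). Rapgef3 had 8.06 ± 1.41 CPM (SD, n = 4) against 8.95 ± 1.41 CPM (SD, n = 3), a log2 difference of 0.14 (SE 0.22).

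Downstream of kinase A, Crem rose and Creb1 and Sik1 were not called. Crem, a CREB-family gene that also gives the inducible repressor ICER from an internal promoter, stood at 17.6, 15.0, 19.4 and 17.2 CPM across controls 1 to 4, against 29.1, 29.8 and 22.8 CPM across labelled knockouts 1 to 3. The groups did not overlap, with a rise of 1.57-fold (log2 0.65, SE 0.15, edgeR adjusted p = 0.0116) called in all 16 alternative fits at the 0.05 threshold but not at 0.01. Counts per gene do not separate ICER from activator forms, and the Crem span overlaps an opposite-strand predicted gene. Creb1 had 32.4 to 40.4 CPM in controls and 34.8, 13.8 and 26.9 CPM in labelled knockouts 1 to 3, so only labelled knockout 1 was in the control range (log2 −0.50, SE 0.24, edgeR adjusted p = 0.200; 0.0422 without labelled knockout 1). Sik1, a kinase gene induced by cyclic AMP that restrains CREB coactivators, was at 5.09, 5.37, 1.28 and 1.58 CPM across controls 1 to 4, against 8.84, 8.77 and 2.48 CPM across labelled knockouts 1 to 3 (log2 0.97, SE 0.55, edgeR adjusted p = 0.276). Its low and high libraries occurred in both groups, and the ranges overlapped.

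Other genes of the pathway were counted in lists by role. The single lists below are short, so a few genes move their shares widely. All were chosen with earlier results of these data known, so their shares are descriptions only. Across 190 distinct genes found that are not among the 59, 159 were tested, 19 were lower and 16 higher (11.9% and 10.1%, beside 5.25% and 8.73% of all tested genes), and their median log2 fold change was −0.07. Of these 35 called genes, 18 were called in every alternative fit and 13 lost the call without 1 library. Under library size alone 11 lost it (Gcgr, Cnr1, Gpsm1, Grk3, Akap13, Pclo, Crtc3, Prkca, Trio, Arhgef11 and Arhgef12). With the acinar covariate 10 lost it (Cnr1, Galr2, Rgs5, Grk3, Pde2a, Pclo, Crtc3, Prkcb, Trio and Bdnf).

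Among Gs-coupled receptors, 2 of 14 tested fell, 1 rose and 11 were not called. Those are 14.3% lower and 7.14% higher, beside 5.25% and 8.73% of all tested genes. Gipr, the receptor for the incretin GIP, stood at 69.4, 86.7, 67.3 and 56.2 CPM across controls 1 to 4, against 32.3, 34.6 and 30.0 CPM across labelled knockouts 1 to 3 (log2 −1.12, SE 0.15). Gcgr, the glucagon receptor gene, fell by 0.74 on the log2 scale (SE 0.17; edgeR adjusted p = 0.0728 under library size alone), and Ptger4, a prostaglandin E receptor gene, rose (log2 1.92, SE 0.42). Glp1r, the GLP-1 receptor gene, missed the threshold at 18.4 against 8.93 CPM on average (log2 −1.04, SE 0.38, edgeR adjusted p = 0.103).

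Among Gi-coupled receptors, 2 of 12 tested fell (16.7%, beside 5.25% of all tested genes) and none rose. Adora1, the adenosine A1 receptor gene, fell from 20.9 to 28.1 CPM in controls to 3.94 to 4.92 CPM in labelled knockouts (log2 −2.42, SE 0.19). Cnr1, a cannabinoid receptor gene, fell by 1.17 (SE 0.31), a call lost without controls 1, 2 or 3 or labelled knockout 1 (0.0561 to 0.0787, edgeR adjusted p). Of 9 tested Gq-coupled receptors, Galr2, a galanin receptor gene, rose (log2 1.45, SE 0.35; edgeR adjusted p = 0.0626 without labelled knockout 2) and Ffar2, a short-chain fatty acid receptor gene, fell by 1.30 (SE 0.19).

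RGS proteins speed the inactivation of G alpha. In their list, which also held the binding partners Rgs7bp and Rgs9bp, 3 of 18 tested genes rose and none fell. That is 16.7% higher, beside 8.73% of all tested genes. Rgs9 stood at 40.9, 49.6, 61.8 and 50.6 CPM across controls 1 to 4, against 152, 166 and 119.0 CPM across labelled knockouts 1 to 3 (log2 1.52, SE 0.15). Rgs17 (log2 0.73, SE 0.14) and Rgs5 (log2 0.61, SE 0.15) also rose. Rgs5 is also in the stellate cell and fibroblast list, whose summed level was 289 to 382 CPM in controls and 428 to 556 CPM in labelled knockouts, and its call was lost without control 3 or labelled knockouts 2 or 3 (0.0535 to 0.0592, edgeR adjusted p). Gnat2, the cone transducin alpha gene, rose among the other G protein subunits (log2 0.95, SE 0.17; 1 of 3 tested).

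G protein helpers and receptor kinases fell in 3 of 14 tested genes (21.4%, beside 5.25% of all tested genes) and rose in none. Grk5, a kinase that desensitises receptors, fell by 1.112 (SE 0.24), and Gpsm1, a guanine nucleotide regulator of Gi, fell by 0.56 (SE 0.12; edgeR adjusted p = 0.128 under library size alone). Grk3 fell by 0.36 (SE 0.10), a call lost without controls 2 or 3 or any 1 labelled knockout (edgeR adjusted p from 0.0665 to 0.100).

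A list of phosphodiesterase and related genes outside the 59 also held Adcy10, a cyclase gene. Of its genes, 2 of 9 tested rose and 1 fell (22.2% and 11.1%, beside 8.73% and 5.25% of all tested genes). Pde5a, which is specific for cyclic GMP, fell from 93.0 to 201 CPM in controls to 34.5 to 42.3 CPM in labelled knockouts (log2 −1.87, SE 0.23). Pde6a, a subunit of the rod photoreceptor enzyme, rose from 0.0697 to 0.191 CPM in controls to 3.79, 9.07 and 5.18 CPM in labelled knockouts 1 to 3 (log2 5.51, SE 0.51). Pde2a also rose (log2 0.75, SE 0.20), a call lost without controls 3 or 4 or labelled knockout 2 (0.0557 to 0.121, edgeR adjusted p).

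Genes around kinase A and Epac moved in both directions. Of 18 tested anchors and inhibitors, Akap13, a kinase A anchor gene, fell by 0.58 (SE 0.12; edgeR adjusted p = 0.0838 under library size alone) and Pkib, a kinase A inhibitor gene, rose (log2 0.85, SE 0.21). Pkib lost its call without control 2 or labelled knockouts 1 or 3 (0.0512 to 0.0731, edgeR adjusted p). Of 13 tested Epac partners, the small GTPase gene Rap1b rose (log2 0.75, SE 0.12), from 185 to 214 CPM in controls to 299.9 to 364 CPM in labelled knockouts. Rap1gap2, whose product switches Rap off, fell by 0.93 (SE 0.15), and Pclo fell by 0.37 (SE 0.11), a call lost with the replicate block (edgeR adjusted p = 0.0767) and without controls 2, 3 or 4 or any 1 labelled knockout (0.0541 to 0.128).

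A further list held CREB cofactors with related transcription factors, kinases and phosphatase inhibitors. Of its 14 tested genes, 2 fell (14.3%, beside 5.25% of all tested genes) and none rose. Ppp1r1a, a phosphatase inhibitor that kinase A activates, fell from 345 to 493 CPM in controls to 185 to 239 CPM in labelled knockouts (log2 −1.03, SE 0.16). Crtc3 fell by 0.48 (SE 0.15), a call lost with the replicate block (edgeR adjusted p = 0.0896) and without any 1 control or labelled knockouts 1 or 3 (0.0745 to 0.144). Crtc2, a CREB coactivator gene prominent in islets, was not called (log2 −0.08, SE 0.17).

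In the list of genes that cyclic AMP induces in other settings, 6 of 18 tested rose, none fell and 12 were not called. That is 33.3% higher, beside 8.73% higher and 5.25% lower over all tested genes. Because the list was chosen with earlier results known, this share is no test of cyclic AMP output. Pde10a, already counted above, is among the 6. Vgf, a granule peptide precursor gene, rose from 27.6 to 33.4 CPM in controls to 475 to 688 CPM in labelled knockouts (log2 4.13, SE 0.16), and Scg2, a secretogranin gene, rose from 3447 to 4162 CPM to 6696 to 8435 CPM (log2 0.99, SE 0.13). Nr4a2, a nuclear receptor gene, rose from 4.59 to 8.10 CPM to 14.6 to 18.0 CPM (log2 1.42, SE 0.22). Pck1, a gluconeogenic enzyme gene, had 5 counts in control 2, none in the other controls, and 0.743 to 1.77 CPM in labelled knockouts, and Bdnf, a growth factor gene (log2 1.62, SE 0.47), and Pde10a, described above, made up the 6. The Bdnf call was lost with the replicate block (edgeR adjusted p = 0.0897) and without any 1 control or labelled knockouts 2 or 3 (0.0517 to 0.147). Fos was not called (log2 0.45, SE 1.43), at 8.81 to 146 CPM in controls and 19.0 to 248 CPM in labelled knockouts.

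Downstream of Gq, 3 of 12 tested effectors fell and 1 rose (25% and 8.33%, beside 5.25% and 8.73% of all tested genes). Itpr3, an inositol trisphosphate receptor gene, fell from 68.3 to 86.9 CPM in controls to 29.4 to 37.0 CPM in labelled knockouts (log2 −1.22, SE 0.13). The protein kinase C genes went apart, with Prkca lower (log2 −0.60, SE 0.16) and Prkcb higher (log2 0.42, SE 0.12), and Trio, a guanine nucleotide exchange factor gene, fell by 0.51 (SE 0.15). Prkca was lost without controls 3 or 4 or labelled knockouts 1 or 3 (0.0508 to 0.0688, edgeR adjusted p), Prkcb without any 1 control or labelled knockouts 1 or 3 (0.0535 to 0.142), and Trio without controls 1, 2 or 3 or labelled knockouts 1 or 3 (0.0670 to 0.128). Of 6 effectors of the Gna12 and Gna13 products, the guanine nucleotide exchange factor genes Arhgef12 (fell by 0.53, SE 0.11) and Arhgef11 (fell by 0.61, SE 0.18) were lower and none was higher. That is 33.3% lower, beside 5.25% of all tested genes. Arhgef11 was lost without controls 1, 2 or 3 or labelled knockouts 1 or 3 (0.0620 to 0.119, edgeR adjusted p), and Arhgef12 under library size alone (0.112).

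Glis3 peaks lay close to most of the 59 genes, as they did to most tested genes. The binding data were 1 list of 21254 peaks, each 200 bases wide, with no replicate and no score. A peak midpoint lay within 1 kb of the 5′ end of 38 of the 59 genes (64.4%, beside 71.2% of all tested genes) and within 10 kb of 46 (78%, exact 95% binomial interval 65.3 to 87.7%, beside 80.5%). A peak lay inside the span of 47 of them (79.7%, beside 61.2%), and their median span was 71.2 kb against 21.7 kb for all tested genes, so the windows inside spans were longer.

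The 4 genes that fell all had a peak within 1 kb of the 5′ end, beside 81.4% of all genes called lower and 71.2% of all tested genes. The distance was 255 bases for Gnai1, 292 for Pde3b, 357 for Gna13 and 423 for Pde7a. Over all tested genes called lower, 90.2% had a peak within 10 kb, beside 80.7% of genes not called. Of the 9 genes that rose, 5 had a peak within 10 kb (Crem at 90 bases, Adcy2 at 444, Prkar1a at 839, Gnas at 889 and Pde10a at 1802), beside 72.2% of all genes called higher. The nearest peak to the 5′ end was 57.0 kb away for Gna14, 106 kb for Gng2, 177 kb for Pde7b and 439 kb for Pde4d.

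**Figure D5:**
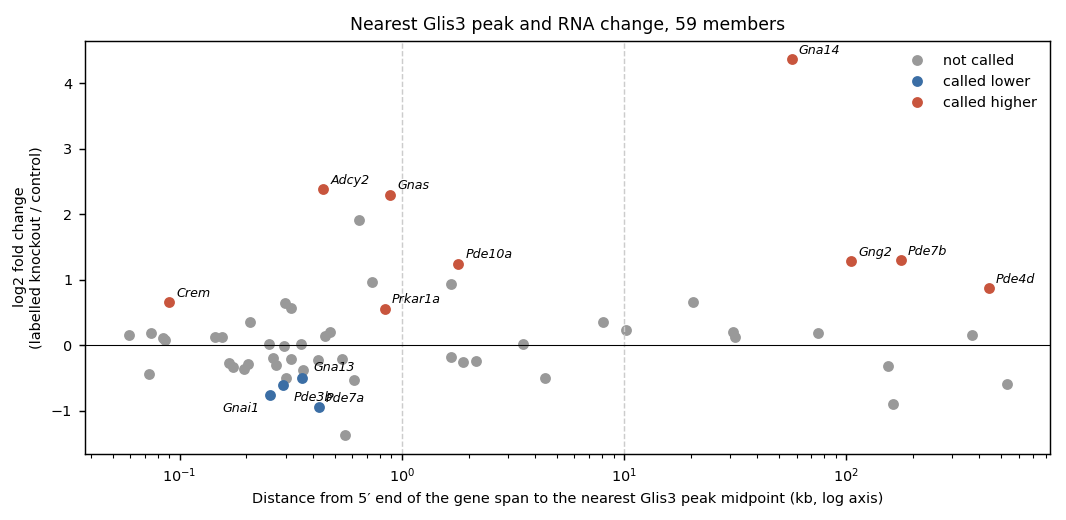
Log2 fold change (labelled knockout over control) of the 59 genes against the distance in kb (log axis) from the 5′ end of the gene span to the nearest Glis3 peak midpoint, with dashed lines at 1 and 10 kb. The 4 genes called lower (blue) lie within 1 kb, and Gna14, Gng2, Pde7b and Pde4d among those called higher (red) lie beyond 10 kb.

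A single 5′ end per gene misses internal starts. Pde7b had a RefSeq start inside its span with a peak midpoint 128 bases after it, and Pde10a had such a start with a peak midpoint 415 bases before it. Peaks inside spans were most numerous in Pde4d (10 in 1301.8 kb) and Rapgef4 (8 in 276.3 kb), counts reached by 0.179% and 0.406% of all tested genes. These shares are not corrected for span length, and the median span of all tested genes was 21.7 kb. Adcy5, Gnao1 and Pde10a had 5 each, and Gnas, Gnaq, Gng12, Adcy9, Pde3a and Pde4b had 4 each. Gng2, Gng11, Adcy1 and Adcy8 had no peak within 100 kb of the 5′ end and none inside the span.

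The motif search covered 86 windows of 250 bases at the 47 genes in the promoter table. The Glis core TGGGGGG, on either strand, was in 8 of these windows (9.30%), beside 7.67% of all 32841 windows, at Gnai1, Gnao1, Gnas, Gnb2, Pde4a and Pde4b. The short form TGACG was in 19 windows (22.1%, beside 17.8%) and the full element TGACGTCA, which contains the short form on both strands, in 1 (1.16%, beside 1.55%). Peaks overlapped 20 of the windows, at 16 genes, and in 1 of them, that of Gnao1, a Glis core match lay inside the peak. That window, chr8:93810588-93810837, is shown for this reason: 158 of its bases are in the peak, and the match, in capitals, begins 125 bases before the start. Gnao1 was not called in the RNA data.
Gnao1 start: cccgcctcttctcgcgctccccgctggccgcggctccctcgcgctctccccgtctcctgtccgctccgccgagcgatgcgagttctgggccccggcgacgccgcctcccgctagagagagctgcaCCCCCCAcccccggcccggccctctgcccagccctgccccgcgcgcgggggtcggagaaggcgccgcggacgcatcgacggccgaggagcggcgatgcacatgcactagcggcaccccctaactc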

How the data were processed

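The authors deposited a table of whole-number read counts for each gene in 7 libraries, with no normalisation and with mm10 coordinates per the file headers. Per the submitters' processing notes, which give no roles, the tools were STAR 2.5, featureCounts 1.5.0-p1, DESeq2, HOMER 4.9.1, bedtools 2.24.0, Bowtie 1.2, cutadapt 1.2.1 and Picard 1.110. Settings, strand option and use of the input library are not given in the sources used here. Peak positions deposited by the authors are 200-base intervals without scores, and the input library was not analysed here.

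Genes were kept with filterByExpr, scaled with TMM and tested with edgeR 4.0.16 in R 4.3.3 (quasi-likelihood, robust), with Benjamini-Hochberg adjustment over 14529 genes. SE is the absolute log2 fold change over the square root of F. The fit was tested on simulated data. The members and lists were chosen with earlier results of these data known. Named genes were Glis3, Gnas, every called member, 15 members with a described islet role and up to 4 called genes per pathway list by smallest p; other members, Glp1r, Crtc2, Fos, Bdnf and Nespas were named after their values were seen. Per the labels' design text the libraries are from separate mice. No 2 libraries of a group were copies (chi-square per degree of freedom of at least 23.4 over genes with at least 10 counts). The labels do not say that replicate numbers mark shared litters. The deviations of same-numbered libraries from their group means correlated at 0.173, 0.117 and 0.117 across genes. Those of libraries with different numbers correlated at −0.183 to 0.157, the highest being control 4 with labelled knockout 3. Control 4 has no same-numbered partner. Among controls 1 to 3, different-numbered pairs reached at most 0.0291, below every same-numbered pair. Whether the numbers mark a shared batch was not tested. Values with the replicate block are given where they change a call. Levels were not compared between genes, since counted lengths were not used here. The alternatives tried were scaling by RLE factors or by library size alone, leaving out the 10 most abundant genes (Gnas among them), no filter, a minimum of 1 CPM in 3 libraries, a DESeq2 1.42.0 fit, limma-voom (limma 3.58.1), the replicate block, leaving out each library, an acinar covariate, an adjusted p under 0.01, and other peak windows. Promoter sequences were 250 bases before RefSeq starts in GRCm38.p6, matched by symbol for 47 of 59 genes. SEs include the variation between libraries, and the exact binomial interval of the peak share treats genes as independent.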

Additional observations from a re-analysis of the deposited data

Results flagged for a closer look

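In 3 of the 95 genes checked, 1 control library stood apart from the other controls; chance flags about 5% of groups. Akap13 was lowest in control 2, at 57.4 CPM against 68.8 CPM in the next control. Rap1b was highest in control 1, at 213.7 CPM against 188 CPM. Pck1 had 0.0972 CPM, 5 counts, in control 2 and no count in the other controls.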

How the results depend on the processing

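Of the 13 called members, 7 were called in every alternative fit at the 0.05 threshold: Gnas (15 fits), Gna14, Gng2, Adcy2, Pde4d, Pde7b and Crem, the last not called at 0.01. Of the 46 not called, 10 were called in at least 1 such fit. The count of members that fell, 4, was 0 under library size alone, 0 with the acinar covariate, 0 at an adjusted p under 0.01, 7 with DESeq2, and 1 to 6 when 1 library was left out; the count that rose, 9, was 11 under library size alone, 7 with the acinar covariate, 7 at 0.01, 7 without the 10 most abundant genes (Gnas among them), 10 with DESeq2, and 8 to 10 when 1 library was left out. With the acinar covariate the edgeR adjusted p was 0.126 for Gnai1, 0.171 for Gna13, 0.104 for Pde7a and 0.161 for Pde10a. Pde10a also missed the threshold without the 10 most abundant genes (0.0503), with no filter (0.0913) and with limma-voom (0.0655). Pathway genes that fell, 19, were 8 under library size alone, 12 at 0.01 and 13 to 20 without 1 library; those that rose, 16, were 26, 10 and 12 to 17. Over all genes, the 763 that fell were 324 under library size alone, 432 with the acinar covariate, 336 at 0.01 and 541 to 825 without 1 library; the 1268 that rose were 731 at 0.01 and 934 to 1142 without 1 library. Library size alone moved the median log2 of all genes by 0.169 and the share of calls that were higher from 62.4% to 85.1%; without labelled knockout 3 that share was 55.4%. The cause was not tested. The share of members with a peak, 78% within 10 kb, was 64.4% within 1 kb, 88.1% within 100 kb and 89.8% inside the span or 10 kb upstream, beside 80.5%, 71.2%, 95% and 82.4% of all tested genes.

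The replicate block (paired by number) ended the calls of Glis3, Gna13, Pde10a, Pclo, Crtc3 and Bdnf, added Gnai3 and Gng5, and changed no other call among the genes named here with alternatives. The sign of 13 members not called turned. Under library size alone Gnb1 was at 0.16 and Prkar1b at 0.0011. With the block Gnb1 was at 0.028, Gnaq at −0.015, Pde1a at −0.25 and Pde1c at −0.079. With limma-voom Gng7 was at −0.039, Pde1a at −0.36 and Pde1c at −0.032, and with no filter Pde1c was at −0.0021. With the acinar covariate Gnaz was at −0.069 and Pde8b at −0.023. When 1 library was left out, the log2 value ran from −0.0059 to 0.28 for Gnal, −0.11 to 0.070 for Gnaz, −0.031 to 0.040 for Gnaq, −0.090 to 0.027 for Gnb1, −0.031 to 1.35 for Gng3, −0.21 to 0.53 for Gng7, −0.0022 to 0.24 for Gng10, −0.067 to 0.36 for Gng11, −0.45 to 0.082 for Adcy7, −0.62 to 0.88 for Pde1a, −0.17 to 0.17 for Pde1c and −0.029 to 0.38 for Pde8b. Differences in members under about 1 CPM in both groups could not be resolved at this depth.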
